A study of Mus musculus with 36 samples.

Results

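The genes described here encode 9 subunits of Polycomb repressive complex 1 (PRC1): Cbx2, Cbx6, Cbx7, Cbx8, Bmi1, Pcgf2, Rnf2, Ring1 and Phc2. They were chosen by name, as 9 of the 22392 annotated mouse genes with an Entrez identifier, and all 9 could be measured. H3K4me3 (K4me3) and H3K27me3 (K27me3) had been mapped by ChIP-Seq in whole pancreas of 12 mice, 3 for each of 4 genotypes, 22 days after tamoxifen given at 2 to 4 months of age. Control mice are labelled Wildtype (WT here), and the study's methods describe its controls as C57BL/6 mice or mice with only the Mist1creERT allele, so a control mouse could carry Cre. The other mice carried Mist1creERT/+ with EZH2[delta]SET (EZ), with a further Cre-activated allele that is not described here (KR), or with that allele and Ezh2[delta]SET (KE). Mist1 drives the tamoxifen-inducible Cre in acinar cells, the enzyme-secreting cells of the pancreas, so that ducts, islets, blood and stroma in the same tissue keep an intact Ezh2. Cre removes the exons for the SET domain, the catalytic part of EZH2.

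PRC1 and PRC2 are the main Polycomb complexes. PRC2 contains EZH2, which methylates histone H3 at lysine 27, and PRC1 holds a RING1 protein (RING1 or RNF2) paired with a PCGF protein (such as BMI1 or PCGF2), which together attach ubiquitin to histone H2A. In canonical PRC1 a CBX protein binds K27me3 through its chromodomain and a PHC protein joins complexes to one another through its SAM domain. Polycomb genes can themselves be Polycomb targets, and in other tissues the Cbx2 and Cbx8 genes, which lie side by side, are among those known to carry K27me3. K4me3 marks the starts of genes that are active or ready to be transcribed, and K27me3 marks repressed genes.

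The deposited lists gave the position of each peak and no height or read count, so the sequencing depth behind each value is unknown and no interval for counting error can be given. Values here are therefore whether a peak lay at a gene start and how wide it was, and nothing about mRNA or protein was measured. WT replicate 2 stood apart. It had 17400 K4me3 peaks against 21815 to 26081 in the other 11 mice, and 1797 genes (8.03% of all) had K27me3 at their start in that mouse alone. All 10 acinar marker genes had K4me3 in every mouse, with a summed width of 57173 bp in WT replicate 2, 84348 bp in KR replicate 1, and 96888 to 121394 bp in the other 10. Of 6 lymphocyte markers, 6 had K4me3 in KR replicate 1, 4 in WT replicate 2, 1 (Ptprc) in EZ replicate 2 and in KE replicate 1, and none in the other 8 mice. Of 6 islet markers, the hormone genes Ins1, Ins2, Gcg and Sst had no K4me3 in any mouse, while Pdx1 had it in 12 mice and Nkx6-1 in 11. Of 4 macrophage markers, Cd68 had it in every mouse and Adgre1, Csf1r and Lyz2 in none. K27me3 peaks on chromosome X numbered 10 to 35 in the 3 KR mice and 17 in EZ replicate 2, against 5637 to 7367 in the other 8, and the labels do not give the sex of a mouse. All 9 genes described here are autosomal. Every KR mouse was in the low set and every WT and KE mouse in the other. In KR against WT and in KE against KR, genotype and this difference therefore cannot be told apart for any gene.

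All 9 genes carried K4me3 at their starts in all 12 mice. A gene start was taken as 3 kb on either side of any annotated TSS, with overlapping windows joined. K4me3 in all 12 mice was found for 12535 of 22392 genes (56%). The 9 genes have 15 separate groups of starts between them, and 11 of these had K4me3 in 12 of 12 mice while 4 had it in none. The starts without K4me3 were the distal start of Cbx7, the internal starts of Pcgf2 and of Rnf2, and the second of 4 groups of Phc2 starts. At Phc2 the second group thus stood without K4me3 between 3 other groups that had it in every mouse.

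The Phc2 starts are printed to show this contrast, as the 250 bases before each of its 3 RefSeq starts (GRCm38.p6, plus strand), with each CG dinucleotide in capitals. K4me3 overlapped the first and the last in 12 of 12 mice and the middle one in 0 of 12.
Phc2 first start, chr4:128654452-128654701: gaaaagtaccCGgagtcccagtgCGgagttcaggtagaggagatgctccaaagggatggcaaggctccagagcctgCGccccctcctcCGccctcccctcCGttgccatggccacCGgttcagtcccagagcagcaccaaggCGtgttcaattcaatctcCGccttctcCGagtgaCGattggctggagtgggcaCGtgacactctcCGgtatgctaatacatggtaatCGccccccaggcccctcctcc
Phc2 middle start, chr4:128688488-128688737: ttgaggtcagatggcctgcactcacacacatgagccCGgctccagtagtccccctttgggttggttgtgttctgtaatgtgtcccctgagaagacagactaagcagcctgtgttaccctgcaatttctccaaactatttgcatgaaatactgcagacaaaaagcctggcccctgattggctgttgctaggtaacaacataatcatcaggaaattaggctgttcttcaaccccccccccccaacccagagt
Phc2 last start, chr4:128727321-128727570: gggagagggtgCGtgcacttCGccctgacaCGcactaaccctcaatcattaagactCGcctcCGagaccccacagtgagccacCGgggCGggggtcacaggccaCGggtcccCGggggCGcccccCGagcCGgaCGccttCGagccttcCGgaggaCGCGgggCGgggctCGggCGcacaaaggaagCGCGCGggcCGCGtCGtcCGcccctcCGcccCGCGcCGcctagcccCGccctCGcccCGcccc
The first sequence held 13 CG, the middle one 1 and the last 34. Over the whole RefSeq window, which adds the first 50 bases after the start, the ratio of observed to expected CG was 0.613, 0.107 and 1.02, which ranked at the 65.1, 14.3 and 94.9 percentile of 32851 mouse promoters.

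RefSeq promoters were at hand for 8 of the 9 genes (all but Cbx2), 10 promoters in all. The other 9 promoters had between 10 and 45 CG in 300 bases, against a median of 7 over all mouse promoters. Pcgf2 was lowest of these at 10 CG with an observed to expected ratio of 0.362, and Ring1 had 37. The median of that ratio was 0.384 over all promoters and 0.791 over those with K4me3 in all 12 mice. The motif GGGCGG, read on both strands, was present in 9 of the 10, against 35.7% of all promoters and 67.9% of the 12113 promoters with K4me3 in all 12 mice. CACGTG, which reads the same on both strands, was in 5 of the 10 (Cbx6, Cbx8, Bmi1, Pcgf2 and the first Phc2 start), against 7.15% and 10.8%. CCAAT on either strand was in 4 of the 10, against 37.4% and 38.2%, and TATAAA in 0 of the 10, against 13.6% and 6.07%. GGGCGG and CACGTG each contain a CG and so are not independent of the CG counts.

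Among the CBX genes, which encode the readers of K27me3, K4me3 was narrow. Summed K4me3 width at the Cbx2 start was 1545, 1635 and 1666 bp in WT, 1619, 1389 and 1570 bp in EZ, 1882, 1648 and 1513 bp in KR, and 1352, 1564 and 1459 bp in KE. Cbx2 encodes a CBX protein needed for normal patterning of the body axis, and its 4 groups overlapped, with the lowest mean in KE. Cbx6 measured 1849, 1848 and 1932 bp in WT, 1866, 1905 and 1992 bp in EZ, 1698, 1777 and 1724 bp in KR, and 1945, 2017 and 2095 bp in KE. Every KE mouse was therefore above every KR mouse at Cbx6, and every KR mouse was below every mouse of the other 3 genotypes. The share of all genes with such separated groups in K4me3 width is not given here. These separations, and those below at Rnf2 and the first Phc2 starts, therefore have no background to be set against. Cbx6 shares a TSS with Npcd, so its K4me3 belongs to either gene. Cbx7, which encodes the main CBX protein of pluripotent cells, measured 1979, 2793 and 1734 bp in WT, 1654, 1892 and 1300 bp in EZ, 2195, 1629 and 1186 bp in KR, and 1706, 1745 and 1733 bp in KE. The widest Cbx7 values were in WT replicate 2 and KR replicate 1, the mice with K4me3 at 4 and 6 of 6 lymphocyte markers, and the part of those cells in the value was not tested. Cbx8 measured 1773, 2016 and 1907 bp in WT, 1828, 1900 and 1656 bp in EZ, 2010, 1827 and 1772 bp in KR, and 1810, 1894 and 1860 bp in KE, and all its groups overlapped.

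**Figure D1:**
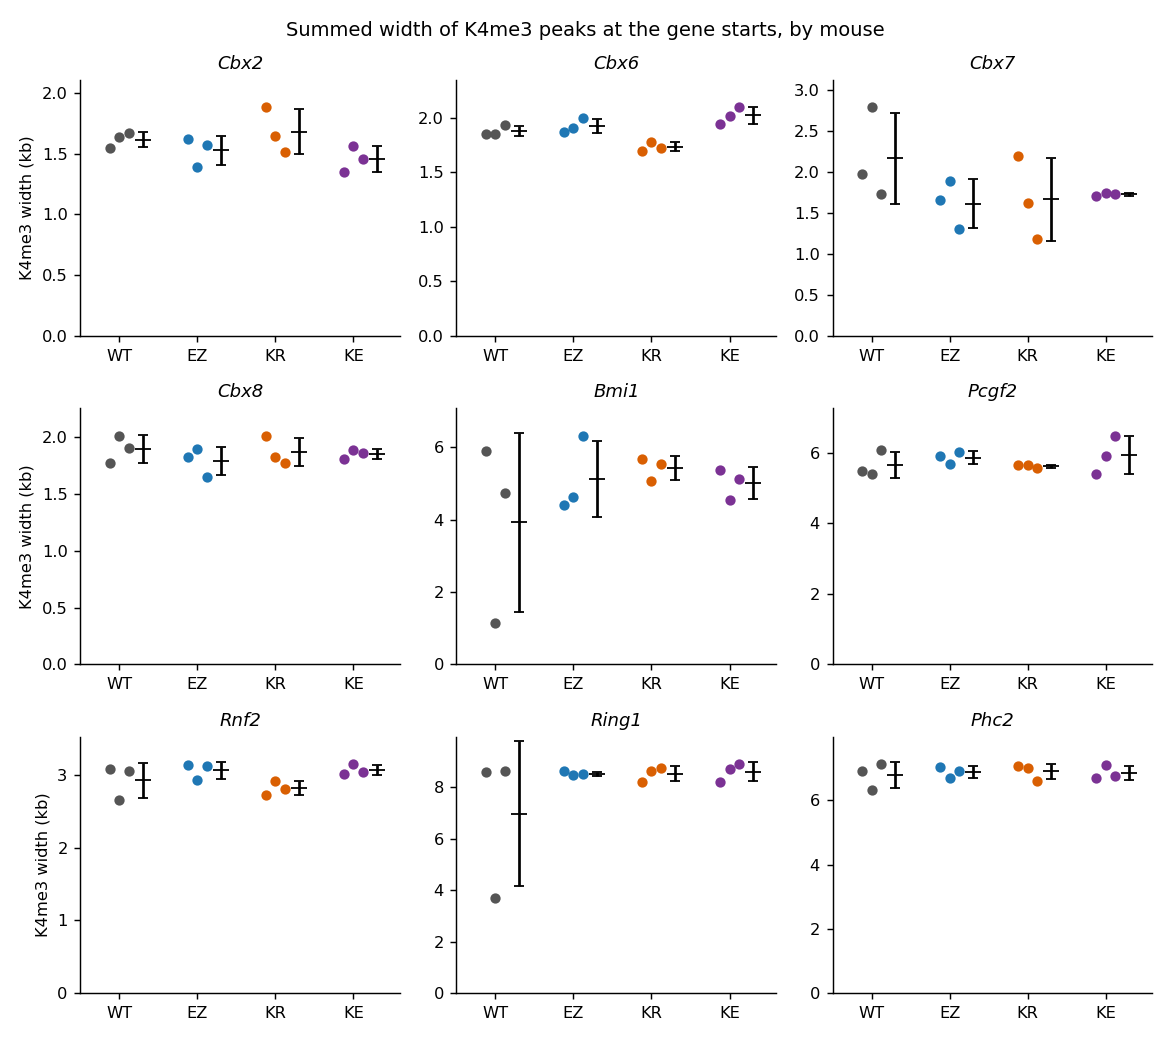
K4me3 width in kb (y axis, from 0) at the starts of each of the 9 genes in WT, EZ, KR and KE mice (x axis). Each point is 1 of 3 mice, and the dash with bars is the mean ± SD. Bmi1 at 1157 bp and Ring1 at 3707 bp in WT replicate 2 lie far below the other 11 mice, while Cbx6 lies lowest in KR and highest in KE.

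The PCGF genes encode the partner that sets the type of PRC1 complex. Bmi1 measured 5891, 1157 and 4724 bp in WT, 4401, 4617 and 6314 bp in EZ, 5677, 5058 and 5540 bp in KR, and 5359, 4526 and 5131 bp in KE. The peak of the neighbouring gene Commd3 ended between 2374 and 2883 bp before the Bmi1 5′ end in 11 mice and so reached the Bmi1 window. In WT replicate 2, the lowest of the 12, it ended 3464 bp before it, and its width did not count. Bmi1's own K4me3 was a single stretch over the 5′ end in 5 mice, 2 stretches in 6 and a single stretch after the 5′ end in WT replicate 2. In 5 of the 6 mice with 2 stretches the gap lay over the 5′ end. Those 6 mice included WT replicate 3, EZ replicates 1 and 2, KR replicate 2 and KE replicates 2 and 3, and so came from all 4 genotypes. The Bmi1 promoter, printed to show the sequence at that gap with CG in capitals, was overlapped by K4me3 in 6 of 12 mice.
Bmi1, GRCm38.p6 plus strand, chr2:18676768-18677017: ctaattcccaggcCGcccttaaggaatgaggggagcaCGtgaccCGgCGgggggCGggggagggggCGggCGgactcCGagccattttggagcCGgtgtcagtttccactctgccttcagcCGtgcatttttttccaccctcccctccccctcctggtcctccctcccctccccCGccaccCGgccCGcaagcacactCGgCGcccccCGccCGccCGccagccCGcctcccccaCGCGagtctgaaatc
It holds 21 CG in 250 bases, and the wider 300-base window has an observed to expected ratio of 0.708, the 71.6 percentile of all promoters. Pcgf2, which encodes the close relative of BMI1 also called MEL18, measured 5479, 5404 and 6067 bp in WT, 5893, 5674 and 6015 bp in EZ, 5642, 5643 and 5570 bp in KR, and 5407, 5902 and 6480 bp in KE. Its KR values were the closest together, at 5618 ± 41.9 bp (SD, n = 3), and lay within the range of the other genotypes. These totals hold 2 peaks in 11 mice, one of 3124 to 3681 bp over the Pcgf2 5′ end and one of 2090 to 2604 bp upstream, over the start of the neighbouring gene Psmb3, which lies 2902 bp away on the other strand. In KE replicate 3, the widest, both were joined in a single peak of 6480 bp.

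The RING genes encode the ubiquitin ligases at the core of every PRC1 complex. Rnf2, also called Ring1b, measured 3088, 2652 and 3051 bp in WT, 3139, 2930 and 3128 bp in EZ, 2731, 2919 and 2815 bp in KR, and 3020, 3151 and 3038 bp in KE. Each KE mouse was above each KR mouse, and WT replicate 2 was the narrowest of all 12. Ring1 measured 8591, 3707 and 8626 bp in WT, 8620, 8473 and 8503 bp in EZ, 8189, 8646 and 8746 bp in KR, and 8192, 8727 and 8903 bp in KE. The stretch over the Ring1 5′ end itself was 1611 to 2042 bp wide, 1823 bp in WT replicate 2. The low total came from a second stretch that lay over the neighbouring genes and ended inside the Ring1 window, with a whole width of 1884 bp in WT replicate 2 and 6381 to 6984 bp in the other 11 mice. The part of it inside the window was 1047 bp in WT replicate 2 and 838 to 1046 bp in the other 11. In WT replicate 2 the K4me3 over the neighbouring genes was split. A further stretch of 3880 bp lay beyond the 1884 bp, outside the window, and was not counted. The other 11 mice had a single stretch over that span.

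Phc2, the only PHC gene in the set, had the lowest spread of the 9 in K4me3 width summed over its starts. The summed width was 6907, 6336 and 7130 bp in WT, 7049, 6703 and 6901 bp in EZ, 7069, 7015 and 6617 bp in KR, and 6704, 7113 and 6757 bp in KE. Its SD within genotypes was 0.0274 on the log2 scale after each library was centred on its median, at the 0.0878 percentile of the 12535 genes tested, whereas Bmi1 had 0.618, at the 97.7 percentile, and the median gene 0.121. The first group of Phc2 starts measured 1583, 1638 and 1649 bp in WT, 1907, 1977 and 1991 bp in EZ, 1855, 1939 and 1636 bp in KR, and 1861, 1655 and 1841 bp in KE. Each EZ mouse was thus above each WT mouse there, and with the 5′ end of each gene alone the EZ to WT difference of Phc2 was 0.22 in log2 width (SE 0.09, limma unadjusted p = 0.028, adjusted p = 0.788). The last group was the widest at 3507 to 4173 bp, and the group between the middle start and the last measured 1185 to 1486 bp.

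K4me3 width was then compared between genotypes with limma on log2 width over 12535 genes, with Benjamini-Hochberg adjustment and a threshold of 0.05. The 3 comparisons with WT share the same control mice. Of the 9 genes, 0 passed for EZ against WT (background 0.0399% of all genes tested), 0 for KR against WT (0.0957%), 0 for KE against WT (0.0239%) and 0 for KE against KR (0.0319%). An unadjusted p under 0.05 was reached by 0, 0, 0 and 2 of the 9, and by 6.22%, 6.3%, 6.16% and 4.1% of all genes. Without WT replicate 1 these counts were 3, 2, 3 and 2 of the 9, without WT replicate 3 they were 1, 2, 0 and 2, and without KR replicate 1 they were 0, 1, 0 and 1. The count for KE against KR was also 1 without KE replicate 1, without KE replicate 3 and with no centring. Over all genes the counts moved as well. They were 780, 790, 772 and 514 of 12535 with all mice and 1380, 1171, 1322 and 516 of 12538 without WT replicate 1. Without WT replicate 3 they were 1195, 1013, 1085 and 497 of 12545, and without KR replicate 1 they were 828, 986, 814 and 485 of 12538. For KE against KR they were 532 of 12565 without KE replicate 1, 413 of 12555 without KE replicate 3 and 403 of 12535 with no centring. The median log2 difference of the 9 genes was -0.03, -0.01, 0.03 and -0.01 in that order of comparisons, against 0.00 over all genes tested in each.

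The 2 genes were Cbx6 and Cbx2, and they differed in opposite directions between KE and KR. Cbx6 was 1.14-fold wider in KE (log2 0.19, SE 0.06, limma unadjusted p = 0.0101, adjusted p = 0.909), and all 3 KE mice exceeded all 3 KR mice. Cbx2 was narrower in KE by 0.23 on the log2 scale (log2 -0.23, SE 0.09, limma unadjusted p = 0.0284, adjusted p = 0.999), with overlapping groups. Neither held after adjustment. The interaction term, which asks whether the KE to KR difference equals the EZ to WT difference, was 0.22 for Cbx6 (SE 0.09, limma adjusted p = 0.999) and did not pass for any of the 9.

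The 95% interval of the KE to KR difference in log2 width was -0.15 to 0.08 for Phc2, -0.02 to 0.22 for Rnf2, -0.10 to 0.20 for Pcgf2 and -0.23 to 0.16 for Cbx8. It was 0.06 to 0.33 for Cbx6 and -0.42 to -0.03 for Cbx2. The intervals were wider for Bmi1, -1.14 to 0.85, Cbx7, -0.47 to 0.61, and Ring1, -0.52 to 0.49. Against WT, Bmi1 was 0.60, 0.76 and 0.62 higher in log2 width in EZ, KR and KE (SE 0.45 each, limma adjusted p = 0.767, 0.822 and 0.801), and Ring1 was 0.33, 0.38 and 0.37 higher (SE 0.23 each, limma adjusted p = 0.761, 0.822 and 0.794). These values rest on WT replicate 2. Without it they were -0.07, 0.09 and -0.05 for Bmi1 and -0.02, 0.03 and 0.03 for Ring1, so that the EZ and KE differences of Bmi1 and the EZ difference of Ring1 changed sign. Counting only bases inside the windows, Ring1 differed by -0.14, -0.01 and -0.05, again opposite in sign to the whole-width values, while Bmi1 kept its sign at 0.17, 0.50 and 0.23.

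**Figure D2:**
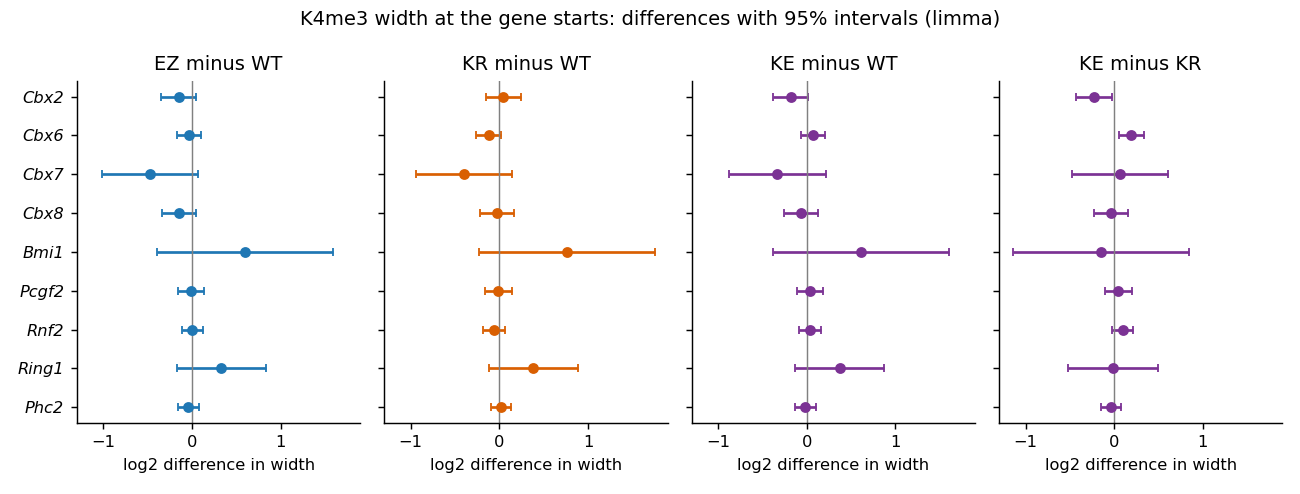
Difference in log2 K4me3 width (x axis) between genotypes for the 9 genes (y axis), 1 panel for each comparison. Points are limma estimates and bars their 95% intervals, of which only Cbx2 and Cbx6 in KE minus KR lie clear of 0, before any adjustment for the 12535 genes tested.

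K27me3 was absent from most of these starts in all genotypes. Cbx6, Cbx7, Bmi1, Pcgf2, Rnf2, Ring1 and Phc2, 7 of the 9, had no K27me3 within 3 kb of a TSS in any of the 12 mice. Among all genes 64.7% had none in any mouse, and among genes with K4me3 in all 12 mice 78.0%, so that a share of 7 in 9 is near that background. At the Cbx2 starts K27me3 covered 63.2% of the window in WT replicate 2 and 0% in the other 11 mice. At the Cbx8 starts it covered 61.6% in WT replicate 2, 32.6% in KR replicate 1, 13.3% in KE replicate 1, 18.1% in KE replicate 2 and 0% in the other 8. K4me3 was present in the same windows, so that 2 genes held both marks in WT replicate 2 and 1 gene in each of the other 3 mice. Of all 22392 genes, 2753 held both marks in WT replicate 2, 1276 in KR replicate 1, 1110 in KE replicate 1 and 1089 in KE replicate 2. The 4 mice include the 2 with the most lymphocyte markers (WT replicate 2 and KR replicate 1) and KE replicate 1 with 1 of 6, but KE replicate 2 had 0 of 6. EZ replicate 2, with 1 of 6, had no K27me3 at Cbx8. The part of those cells was not tested. In whole tissue, K27me3 in a few cells that carry it strongly and in many that carry it weakly cannot be told apart.

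Of the 9 genes only Cbx8 had K27me3 at its starts in more than 1 mouse, so that the groups of the other 8 had to overlap. With 3 mice against 3 the exact two-sided permutation test cannot give a p below 0.1. Of the 9, 0 had groups that did not overlap for EZ against WT (background 0.804% of all genes), KR against WT (2.5%), KE against WT (1.38%) and KE against KR (4.25%). On the autosomes alone those backgrounds were 0.837%, 0.899%, 0.851% and 1.35%. For Cbx8 the exact permutation p was 1 in each of the 4 comparisons, with mean coverage of 20.5% in WT, 0% in EZ, 10.9% in KR and 10.5% in KE.

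Distance to the nearest K27me3 split the 9 genes. From the annotated 5′ end, the median over 12 mice was 4.46 kb for Cbx8, 11.9 kb for Bmi1 and 22.1 kb for Cbx2, and 150 kb or more for the other 6. These 6 were Phc2 at 150 kb, Ring1 at 222 kb, Rnf2 at 501 kb, Pcgf2 at 610 kb, Cbx7 at 1261 kb and Cbx6 at 1397 kb. Over all genes the median was 141 kb, and over genes with K4me3 in all 12 mice 197 kb. WT replicate 2 gave the shortest distance of the 12 mice for 7 of the 9 genes, all but Ring1 and Phc2. With WT replicate 2 left out, Rnf2 was the steadiest of the far genes, with 499 to 559 kb in 11 mice, but WT replicate 2 had 34.8 kb. At Ring1, EZ replicate 3, KE replicate 1 and KE replicate 2 had K27me3 within 54.7 to 56.4 kb, and the other 9 mice had none nearer than 211 kb.

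**Figure D3:**
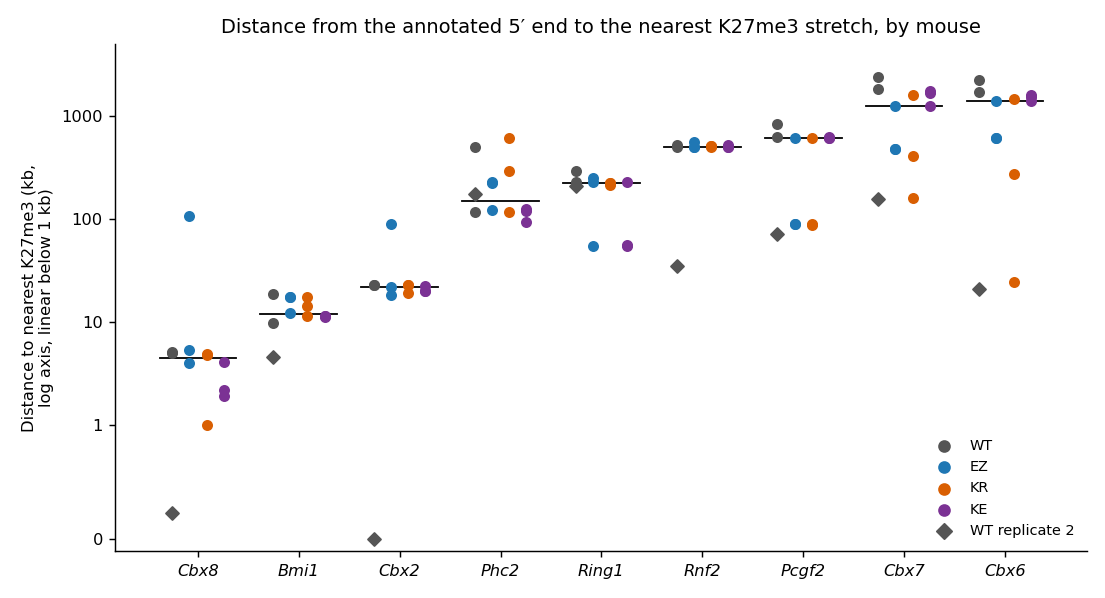
Distance in kb (y axis, logarithmic above 1 kb and linear below) from the annotated 5′ end of each gene (x axis) to the nearest K27me3 stretch. Points are single mice, diamonds are WT replicate 2 and lines are medians over 12 mice, which rise from 4.46 kb at Cbx8 to 1397 kb at Cbx6.

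Cbx2 and Cbx8 lie side by side on chromosome 11 (mm10), Cbx2 on the plus strand at chr11:119022962-119031270 and Cbx8 on the minus strand at chr11:119036305-119040969, with their 5′ ends 18.0 kb apart. A K27me3 stretch lay in the intergenic part upstream of Cbx8 in 11 of 12 mice, all but EZ replicate 2. The 11 mice shared 4660 bp of it, chr11:119046263-119050922. Its near edge lay 4.95, 0.227 and 5.12 kb upstream of the Cbx8 5′ end in WT and 4.03 and 5.29 kb in EZ replicates 1 and 3. It lay at 1.00, 4.88 and 4.78 kb in KR and at 2.19, 1.89 and 4.13 kb in KE. The 4 mice with K27me3 at the Cbx8 start were thus those in which this stretch came nearest. In KR replicate 1 and in KE replicates 1 and 2 the K27me3 in the Cbx8 window was the edge of this stretch, and in WT replicate 2 the window also held part of a separate stretch over the Cbx8 gene.

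The stretch measured 5, 22.8 and 6.77 kb in WT, 7.93 and 8.04 kb in EZ where present, 12.7, 6.88 and 6.36 kb in KR, and 10.7, 11.3 and 9.44 kb in KE. The widest by far was in WT replicate 2. The mean was 11.5 ± 9.83 kb in WT, 5.32 ± 4.61 kb in EZ with EZ replicate 2 at 0, 8.63 ± 3.50 kb in KR and 10.5 ± 0.964 kb in KE (SD, n = 3). Exact two-sided permutation tests of this width gave p = 0.6 for EZ against WT, 0.9 for KR against WT, 1 for KE against WT and 0.4 for KE against KR. Without WT replicate 2 the KE mice were all wider than the 2 WT mice left, by 4.59 kb in the mean, and the exact permutation p = 0.1 was the smallest that 3 against 2 can give. The KE to WT difference with it was -1.06 kb. Without it the KR to WT difference turned from -2.9 to 2.75 kb (exact permutation p = 0.5) and the EZ to WT difference went from -6.21 to -0.561 kb (exact permutation p = 1). A second stretch 91.2 to 94.2 kb upstream of Cbx2 was shared by 11 mice, all but KE replicate 2. One more, 19.8 to 23.5 kb upstream of Cbx2, was present in WT replicate 2, EZ replicate 3, KR replicate 1 and KE replicate 2.

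**Figure D4:**
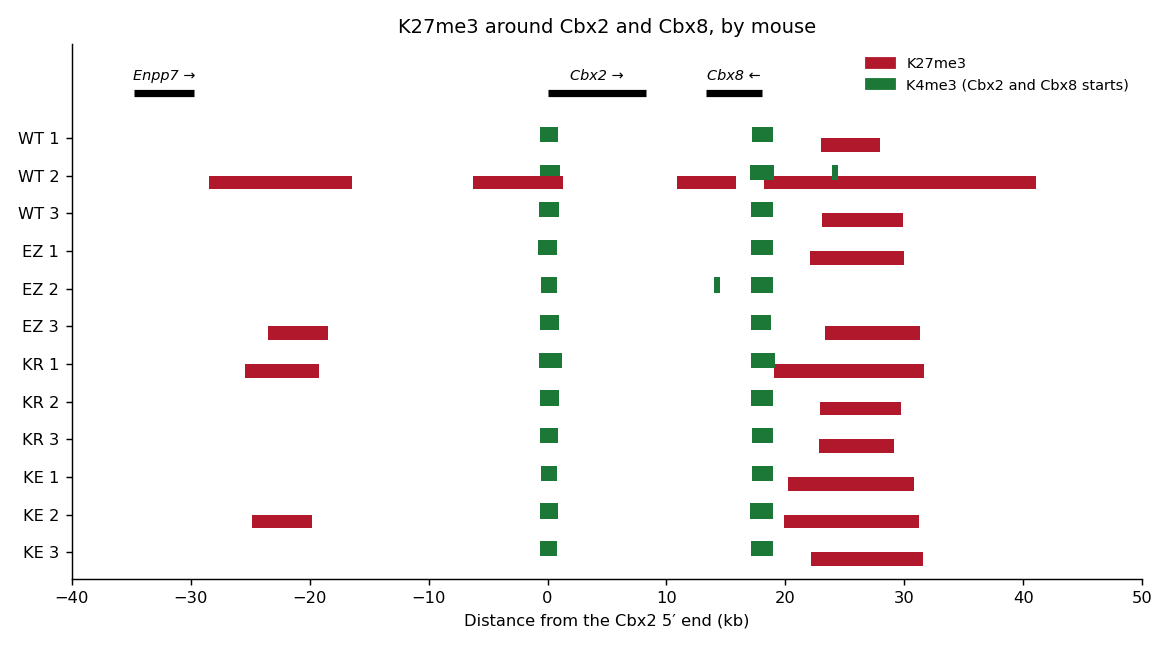
K27me3 stretches (red) and K4me3 peaks of Cbx2 and Cbx8 (green) in each of the 12 mice (rows), by distance in kb from the Cbx2 5′ end (x axis), with genes as black bars and arrows for their strand. The stretch upstream of Cbx8 is seen in 11 rows, and in WT replicate 2 K27me3 also overlaps the start of Cbx2.

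The sequences on either side of this boundary are printed for comparison, the 250 bases before the Cbx8 start with K4me3 in 12 of 12 mice, and the central 300 bases of the shared K27me3 stretch, with CG in capitals.
Cbx8 promoter, GRCm38.p6 minus strand, chr11:119040914-119041163: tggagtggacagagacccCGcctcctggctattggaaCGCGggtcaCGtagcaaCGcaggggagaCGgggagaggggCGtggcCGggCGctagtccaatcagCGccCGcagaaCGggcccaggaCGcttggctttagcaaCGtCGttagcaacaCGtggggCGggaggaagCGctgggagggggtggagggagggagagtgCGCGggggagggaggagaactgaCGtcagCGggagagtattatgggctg
Shared K27me3 stretch, mm10 plus strand, chr11:119048443-119048742: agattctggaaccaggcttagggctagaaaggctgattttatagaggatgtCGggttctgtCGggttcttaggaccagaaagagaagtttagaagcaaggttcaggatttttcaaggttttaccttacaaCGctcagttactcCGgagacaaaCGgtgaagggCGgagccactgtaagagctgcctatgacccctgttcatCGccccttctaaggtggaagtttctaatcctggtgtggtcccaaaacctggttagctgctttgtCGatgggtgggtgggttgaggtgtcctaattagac
The promoter held 22 CG and the K27me3 stretch 8 in a longer window. Over its 4660 bp the shared stretch had 2.92 CG per 100 bp, 52.5% G and C, and an observed to expected CG ratio of 0.423. The 1618 bp with K4me3 in all 12 mice at the Cbx8 start had 6.74 per 100 bp, 63.5% and 0.679. At Cbx2 the corresponding 1352 bp had 9.99 per 100 bp and a ratio of 0.911. Over the 11 groups of starts with K4me3 this ratio ran from 0.375 at the Phc2 group before the last to 0.919 at Rnf2.

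Bmi1 had K27me3 beyond its 3′ end in all 12 mice. The stretch began 18.9, 9.45 and 9.82 kb after the Bmi1 5′ end in WT, 17.6, 17.6 and 12.3 kb in EZ, 14.2, 17.6 and 11.4 kb in KR, and 11.3, 11.4 and 11.5 kb in KE. Bmi1 is 9612 bp long (chr2:18677018-18686629, plus strand), so that it reached the gene only in WT replicate 2, where it covered 1.66% of the gene body at the 3′ end. It overlay the start of Spag6, a gene for an axonemal protein of motile cilia, which lies 17 kb after the Bmi1 5′ end, in 8 of 12 mice. The shared part was chr2:18695926-18705000, 9075 bp with 39.8% G and C and a CG ratio of 0.300.

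Its width was 9.08, 27.3 and 19.7 kb in WT, 11.5, 11.4 and 17.9 kb in EZ, 17.6, 12.4 and 17.7 kb in KR, and 18.2, 17.8 and 17.6 kb in KE. The KE mice were nearly equal, at 17.9 ± 0.316 kb, against 18.7 ± 9.16 kb in WT, 13.6 ± 3.75 kb in EZ and 15.9 ± 3.04 kb in KR (SD, n = 3). Exact two-sided permutation tests gave p = 0.6 for EZ against WT, 0.7 for KR against WT, 0.7 for KE against WT and 0.2 for KE against KR. The smallest p that 3 against 3 can give is 0.1. Without WT replicate 2, the widest, the EZ, KR and KE differences from WT went from -5.09, -2.82 and -0.812 kb to -0.779, 1.49 and 3.5 kb (exact permutation p = 0.9, 0.7 and 0.7), so that those of KR and KE changed sign. WT replicate 2 also had K27me3 that ended 4.59 kb upstream of the Bmi1 5′ end and reached just over the Commd3 5′ end, and no other mouse had K27me3 there.

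**Figure D5:**
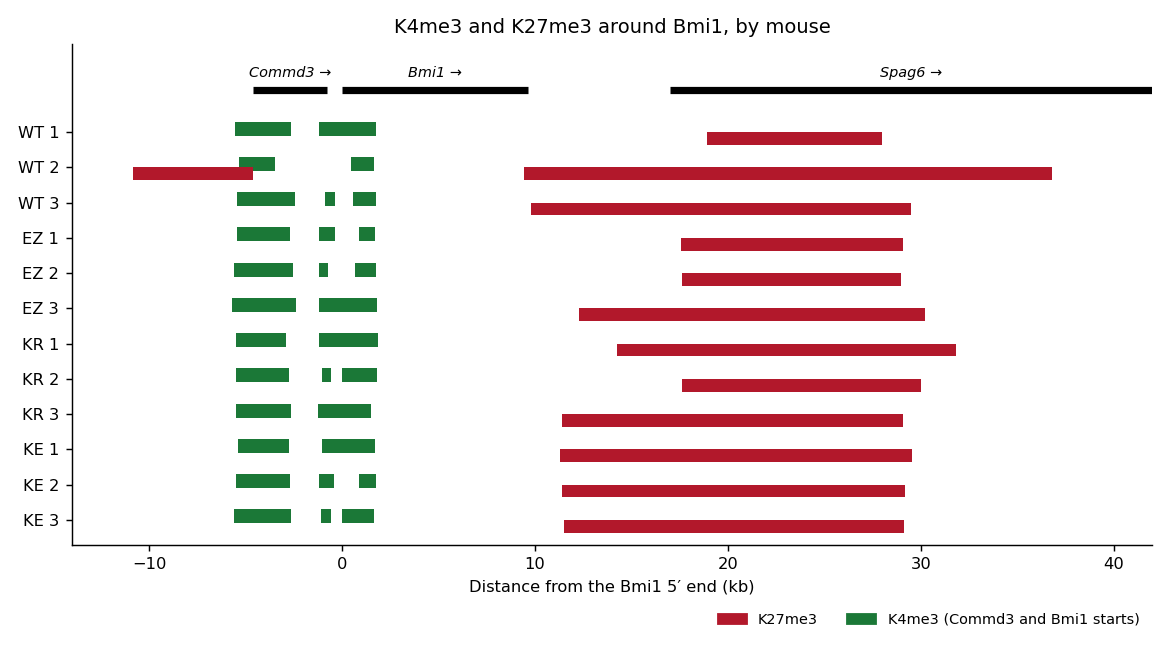
K4me3 peaks of Commd3 and Bmi1 (green) and K27me3 stretches (red) in each of the 12 mice (rows), by distance in kb from the Bmi1 5′ end (x axis), with genes as black bars. K27me3 lies after the gene in all 12 rows, and in 6 rows the Bmi1 K4me3 is split into 2 stretches.

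The remaining PRC1 genes gave a like picture. Of 16 other PRC1 genes measured (among them Phc1, Phc3, Pcgf1, Kdm2b and Rybp), 16 had K4me3 in all 12 mice and 11 had no K27me3 at their starts in any mouse. By limma 0 of the 16 were called wider and 0 narrower in each of the 4 comparisons, with 1, 0, 0 and 1 at an unadjusted p under 0.05. The 11 PRC2 genes, Ezh2 and its partners Eed and Suz12 included, also had K4me3 in all 12 mice, 9 of them without K27me3 in any, and 0 were called in any comparison (0, 0, 0 and 1 at an unadjusted p under 0.05). The 3 HP1 genes (Cbx1, Cbx3 and Cbx5), whose proteins carry a chromodomain that reads methylated lysine 9 instead, had K4me3 in all 12 mice and no K27me3, with 0 called by limma (1, 1, 1 and 0 at an unadjusted p under 0.05).

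K27me3 at the starts was found in at least 6 of 12 mice for 2 genes of these lists, Scml2 in 8 mice and Rbbp7 in 6, both on chromosome X. Scml2 had K27me3 in the 8 mice with 5637 or more K27me3 peaks on chromosome X and in none of the 3 KR mice or EZ replicate 2. It was the only gene of the 3 lists whose groups did not overlap, lower in KR than in WT and higher in KE than in KR. For this gene the genotype and the difference in chromosome X K27me3 cannot be told apart.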

How the data were processed

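Chromatin from whole pancreas of 12 mice was immunoprecipitated for K27me3 and K4me3. After bowtie2 alignment of the reads (mm10), the authors ran HOMER findPeaks per sample with its histone setting and the matching input (versions are not given in the sources used here). The deposited files, 1 for each mark and mouse, hold peak positions, and their score column, as deposited by the authors, is 1 for every peak, so depth is unknown. K4me3 and K27me3 lists with the same genotype and replicate number were taken as 1 mouse.

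Overlapping peaks were joined. Genes came from GENCODE vM21 (mm10), 22392 of 55450 having an Entrez identifier. Windows spanned 3 kb on either side of each TSS, with an overlap of 1 bp or more. Log2 K4me3 width was centred on the median of each library and tested over all genes with limma 3.58.1 (R 4.3.3) using all 12 mice, a trended prior and Benjamini-Hochberg adjustment. Width comes from peak calls, so it moves with depth and background. K27me3 coverage was compared by exact two-sided permutation tests. The code was tested on simulated data. All 9 genes are named in the report. The genes and lists were chosen with earlier results of these data known. Of the other PRC1 genes and of the PRC2 and HP1 genes, those with K27me3 in at least 6 of 12 mice were named. Auts2, of the other PRC1 genes, had no Entrez identifier in the GENCODE mapping used and was not measured, and some items are not reported here. Promoters and genome sequence came from RefSeq GRCm38.p6, the build of mm10. The inputs were not analysed here. Python 3.11.15, NumPy 2.4.6 and Matplotlib 3.10.9 were used.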

Additional observations from a re-analysis of the deposited data

How the results depend on the processing

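No setting called K4me3 width changed at any of the 9 genes, and K27me3 gave groups that did not overlap at 0 of the 9 in every comparison under each alternative run, each mouse left out included. The number of the 9 at an unadjusted p under 0.05 moved, from 0, 0, 0 and 2 to between 0 and 3, 0 and 2, 0 and 3, and 1 and 2. The count over all genes moved too, to 1380, 1171 and 1322 of 12538 in the comparisons with WT without WT replicate 1. K4me3 was present at 9 of 9 in all mice of each genotype under each alternative but the 5′ end alone, which gave 8 of 9 in each, without Cbx7. The count of all genes called by limma moved, from 5, 12, 3 and 4 (EZ, KR and KE against WT, KE against KR). With 1 kb windows it was 9 for EZ and 1 for KE against WT, and with the 5′ end alone 8, 7 and 0 for the 3 comparisons with WT. With peaks of at least 1 kb it was 13 for EZ and 6 for KE, with equal numbers of peaks 14 for EZ, 5 for KE and 7 for KE against KR, with no centring 3 and 0 for EZ and KE, and with a peak in at least 6 mice 14 and 10. Bases inside the windows, chosen after seeing the data, gave 10 for EZ and 5 for KE against WT and 10 for KE against KR. Leaving out each mouse gave 0 to 17, 0 to 42, 0 to 16 and 1 to 16, the highest being without WT replicate 2. With the replicate block it was 0 in all 4. Deviations of same-numbered mice correlated between -0.58 and 0.42, with a median of 0.071 and 8 of 18 pairs over 0.1. For differently numbered mice the range was -0.55 to 0.66, the median 0.052, and 14 of 36 pairs were over 0.1. The replicate numbers therefore showed no clear pairing of the mice. The cause of these shifts was not tested.

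K27me3 in all 3 mice of a genotype was found at 0 of the 9 in each. Within 5 kb it was 1 in KR and 1 in KE (Cbx8 in both), and in the 100 kb upstream window 2 in WT, 1 in EZ, 2 in KR and 2 in KE, Cbx2 and Cbx8. In single mice that upstream window held K27me3 at 11.1% to 44.4% of the 9 and at 27.8% to 54.4% of all genes. At the starts, presence in at least 2 of 3 mice gave 1 in KE, and leaving out each KE mouse gave 0 to 1, in both cases Cbx8. Peak width and presence depend on depth, which the lists do not give, so a K27me3 signal too weak or too narrow for a call (under 5001 bp) would not be seen.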
